A study of Mus musculus with 8 samples.

Results

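Ribosome-associated RNA from mouse liver was compared between 4 libraries, all from mice 17 days after bile duct ligation (BDL). They are 4 of the 8 libraries of the study. Of these, 2 came from LysM-Cre:Hmoxflfl:Ribotag mice and 2 from LysM-Cre:Ribotag mice, and the samples were taken for the comparison by those genotype and treatment labels alone. The other 4 libraries, 2 of each genotype without ligation (controls), entered the same model and give the comparison in unligated liver. All 8 carry LysM-Cre and the Ribotag allele, and the labels give the tissue as liver and the cell type as myeloid cells. LysM-Cre:Ribotag libraries are called wild type below. LysM-Cre:Hmoxflfl:Ribotag libraries are called labelled deleted, because their Hmox1 RNA did not go down (below). The labels do not say whether the 2 libraries of a group came from separate mice. Those of ligated wild type did, since they differ in sex (below), and for the other groups the spread behind the p-values may be technical. They also give no sex, no age and no number of Cre copies.

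Hmox1 encodes heme oxygenase-1 (HO-1), an inducible enzyme that splits heme into biliverdin, iron and carbon monoxide and that macrophages use when they take up red cells or meet oxidative stress. BDL blocks bile flow, so that bile acids build up in the liver, bile ducts multiply and activated stellate cells and portal fibroblasts lay down collagen. In a Ribotag mouse, Cre switches the ribosomal protein gene Rpl22 to a form with an epitope tag, and ribosomes of the Cre-expressing cells can be pulled out of whole tissue with the RNA they are translating. LysM-Cre is expressed from the Lyz2 (lysozyme 2) locus and is active in monocytes, macrophages and neutrophils. The study asks what HO-1 in these cells does in liver injury. It puts weight on Notch1, a receptor that directs cell fate, and on Lnx1, an E3 ligase that marks Numb, an inhibitor of Notch, for breakdown.

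The 4 BDL libraries differed in depth and make-up. They held 9.81 to 33.4 M counts, of which RN45S, the ribosomal RNA precursor, took 18.8% to 66.8%. The counts left for other genes were 15.3 M and 3.25 M in labelled deleted and 20.99 M and 10.5 M in wild type, so labelled-deleted replicate 2 is the shallowest library. The first wild-type BDL library (replicate 1) was from a female mouse, with 667 CPM of Xist and 0 of Ddx3y, and the other 7 libraries had the male pattern. CPM are counts per M after scaling by trimmed means of M-values (TMM). Of the markers that define the labelled cell type, Ptprc, Adgre1, Cd68, Csf1r, Itgam and Clec4f were detected in all 8 libraries, and Lyz2 was near 0 in the labelled-deleted ones. Hepatocyte RNA was abundant beside them: the hepatocyte list held 9.92% to 14.5% of counts outside RN45S in the BDL libraries, against 0.215% to 0.279% for the Kupffer cell list. In such RNA, fewer cells of a type and less RNA per cell cannot be told apart.

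The targeted gene went against the genotype label: Hmox1 RNA rose in labelled deleted. It stood at 72.3 and 95.5 CPM in labelled deleted after BDL and at 26.0 and 24.0 CPM in wild type. The groups did not overlap, and the log2 fold change was 1.74 ± 0.24 (SE; adjusted p = 0.0191, edgeR quasi-likelihood test with Benjamini-Hochberg adjustment over all genes). In controls the levels were 22.5 and 29.9 CPM in labelled deleted and 6.22 and 7.46 CPM in wild type, a log2 fold change of 1.94 (adjusted p = 0.00434, edgeR). Labelled-deleted controls stood about where ligated wild-type livers did. The gene lies at chr8:75093621-75100589 (GRCm38). The counts cover the whole gene and the labels do not say which part is flanked by lox sites, so the values cannot tell a shortened transcript from a whole one. After BDL the direction held in 23 of 23 alternative analyses (log2 fold change 0.98 to 1.95) and the call in 13 of them. It was lost with total-count scaling, without either labelled-deleted BDL library and without wild-type BDL replicate 2, among other settings.

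Across the genome, 9 of 14147 tested genes differed between the labelled genotypes after BDL at an adjusted p under 0.05 (0.0636% called; edgeR), 2 of them higher in labelled deleted (0.0141%) and 7 lower (0.0495%). At an unadjusted p under 0.05 there were 1670 genes (11.8%), 762 higher (5.39%) and 908 lower (6.42%), and for 2524 (17.8%) and 2896 (20.5%) genes both labelled-deleted libraries lay above or below both wild-type libraries. The largest rise was that of Cacna1a, the pore subunit of a neuronal calcium channel, from 2.40 and 2.57 CPM in wild type to 62.3 and 33.2 CPM in labelled deleted (log2 fold change 4.29 ± 0.35, adjusted p = 0.000413, edgeR). Hmox1 was the only other gene called higher.

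Among the genes that fell, Lyz2 carries the Cre driver. It had 27.3 and 13.2 CPM in wild type and 0.155 and 0.665 CPM in labelled deleted, or 7 counts in the latter group against 1176 in the former (log2 fold change -6.34 ± 0.61, adjusted p = 0.00156, edgeR). Every labelled-deleted library, ligated or not, lay below every wild-type library for Lyz2, and the labelled-deleted controls held 0.128 and 0.212 CPM. The labels do not give the number of Cre copies at this locus. Copies of Cre and the labelled deletion therefore cannot be told apart for Lyz2. The neighbouring paralogue Lyz1, the other mouse lysozyme gene, stood at 4.60 and 8.42 CPM in labelled deleted and 0.702 and 0.218 CPM in wild type (log2 fold change 3.65, adjusted p = 0.118, edgeR, not called). Lyz2 and Lyz1 share 15.4% of the 50-base stretches of Lyz2 transcripts, so some reads could be split between them. Rpl22, the Ribotag locus, was at 56.6 and 73.8 CPM in labelled deleted and 110.0 and 58.8 CPM in wild type. These ranges overlapped (log2 fold change -0.38, adjusted p = 0.716, edgeR).

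Dab1, an adaptor of the reelin receptors, fell from 31.4 and 35.2 CPM to 1.24 and 1.33 CPM (log2 fold change -4.72 ± 0.39, adjusted p = 0.000413, edgeR). Tmc5, a transmembrane channel-like gene, fell from 13.4 and 17.6 CPM to 0.928 and 1.99 CPM (log2 fold change -3.66 ± 0.40, adjusted p = 0.00445, edgeR). Rprl3, a ribonuclease P RNA-like gene on chromosome 8, had 36.2 and 10.9 CPM in wild type and 1 count in the 2 labelled-deleted libraries together. The ratio of wild type to labelled deleted for Rprl3 was 831 (95% counting interval 149 to 32900). Tmc5, Rprl3 and the 3 genes of the next paragraph fall outside the rule for naming genes, because their mean level is low or they are predicted genes. They are named because only 9 genes were called, and were chosen after their values were seen.

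The remaining 3 called genes form a group by position and sequence. Gm14325, Gm14403 and Zfp971 lie within 1 stretch of chromosome 2 that carries many near-identical zinc finger genes, which encode DNA-binding proteins. Their upstream windows, 250 bases before the RefSeq gene start (GRCm38.p6), are shown because the 3 genes were nearly silent in the same libraries. The capitals mark the longest stretch, 59 bases, that all 3 windows hold, at chr2:177840337-177840586 (minus strand), chr2:177497976-177498225 (plus) and chr2:178023034-178023283 (plus) in turn.
Gm14325: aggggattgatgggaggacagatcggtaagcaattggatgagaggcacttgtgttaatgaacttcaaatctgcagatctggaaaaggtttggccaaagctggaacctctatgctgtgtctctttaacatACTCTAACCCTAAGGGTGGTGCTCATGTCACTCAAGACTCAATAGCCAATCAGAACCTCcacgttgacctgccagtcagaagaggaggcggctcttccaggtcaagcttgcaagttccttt
Gm14403: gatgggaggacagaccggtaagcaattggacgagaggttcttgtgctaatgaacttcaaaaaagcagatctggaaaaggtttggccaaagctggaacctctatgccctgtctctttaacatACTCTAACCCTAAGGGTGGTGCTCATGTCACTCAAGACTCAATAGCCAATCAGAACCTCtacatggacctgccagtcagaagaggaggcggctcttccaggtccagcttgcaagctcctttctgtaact
Zfp971: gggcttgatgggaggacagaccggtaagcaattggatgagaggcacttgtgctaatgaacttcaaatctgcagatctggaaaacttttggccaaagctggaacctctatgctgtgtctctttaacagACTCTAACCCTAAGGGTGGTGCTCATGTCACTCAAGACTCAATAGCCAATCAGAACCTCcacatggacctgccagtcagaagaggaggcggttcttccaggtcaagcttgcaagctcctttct

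The windows were 90.8% identical between Gm14325 and Gm14403, 95.2% between Gm14325 and Zfp971 and 92.0% between Gm14403 and Zfp971. Of the 10 genes looked up (the 9 called and Lnx1), 6 had a window in the RefSeq table. Gm14403 was at 16.8 and 55.6 CPM in wild type and had 1 count in labelled deleted, a ratio of 922 (counting interval 165 to 36400; adjusted p = 0.00762, edgeR). Gm14325 was at 8.13 and 26.2 CPM in wild type and likewise had 1 count, a ratio of 438 (78.4 to 17300; adjusted p = 0.00573, edgeR). Zfp971 was at 6.67 and 20.6 CPM against 0 counts, at least 117-fold lower with a floor of 3 counts over the group (adjusted p = 0.0216, edgeR). Such bounds cover counting error only. In each of the 3 genes wild-type BDL replicate 1 held about 3 times less than replicate 2, yet both stood far above every labelled-deleted library. The transcripts share 82.2%, 36.1% and 51.1% of their 50-base stretches with other genes in the order Gm14325, Gm14403 and Zfp971, so the split of reads among members of the cluster is uncertain.

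**Figure D1:**
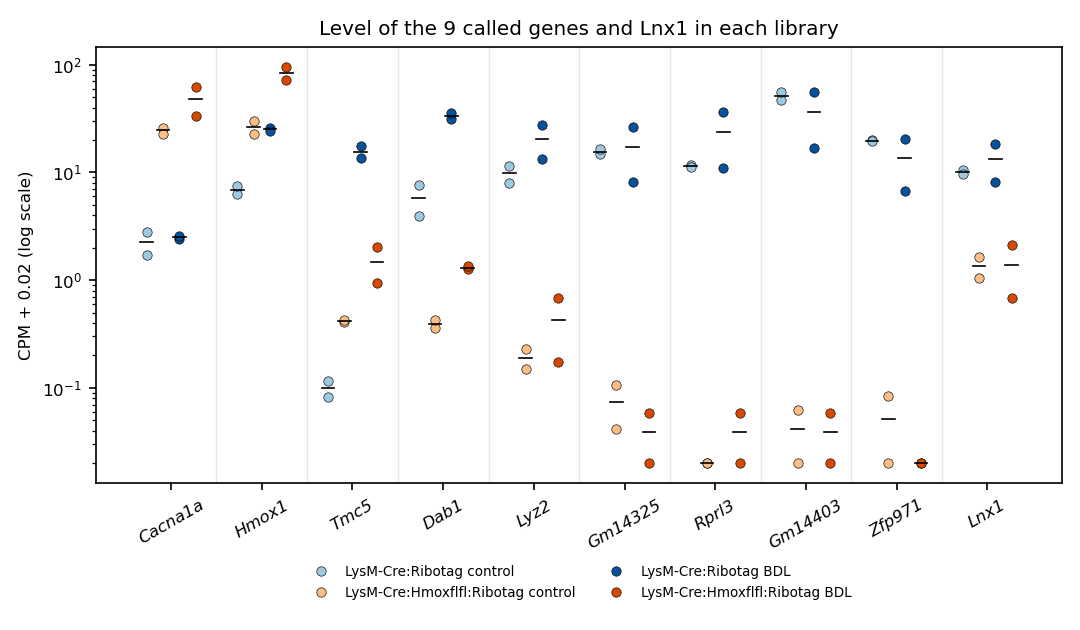
CPM (log scale, offset 0.02) of the 9 called genes and Lnx1 in each of the 8 libraries. Points are libraries, 2 in each group, bars are group means, and colours give genotype and treatment. For every gene shown except Hmox1 and Tmc5, both labelled-deleted groups lie on the same side of both wild-type groups.

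The comparison in unligated liver shares no library with the comparison after BDL. Both come from the same fit, with a shared filter, scaling and estimate of spread for each gene, so their calls are not independent. In controls 27 of 14147 genes were called (0.191%). Of the 9 genes called after BDL, 8 were among them with the same sign. That is 88.9% of the calls after BDL and 29.6% of those in controls. Of the 27 genes called in controls, 25 had the same sign after BDL. The 8 genes called in both were Cacna1a, Hmox1, Dab1, Lyz2, Rprl3, Gm14325, Gm14403 and Zfp971. Cacna1a was at 26.1 and 22.9 CPM in labelled-deleted controls and 1.70 and 2.80 CPM in wild-type controls (log2 fold change 3.44, adjusted p = 0.00123, edgeR). Dab1 was at 0.342 and 0.402 CPM against 7.63 and 3.89 CPM (log2 fold change -3.91, adjusted p = 0.00123, edgeR). Outside this small set the comparisons had little in common. Across genes, which are not independent replicates, the log2 fold changes correlated with Pearson r = 0.216 and Spearman rho = -0.0063, and 49.5% of genes had the same sign.

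Tmc5 was the exception among the called genes. In controls it had 0.385 and 0.402 CPM in labelled deleted and 0.0628 and 0.0965 CPM in wild type, opposite to the order after BDL (log2 fold change 2.25, adjusted p = 0.322, edgeR, not called). The interaction, the difference between the labelled-genotype effects in ligated and unligated liver, was -5.90 ± 0.70 on the log2 scale for Tmc5 (adjusted p = 0.0387, edgeR). It was the only gene of 14147 (0.00707%) with an adjusted p under 0.05 for the interaction, and 1316 genes (9.30%) had an unadjusted p under 0.05. DESeq2 called 84 genes for the interaction.

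**Figure D2:**
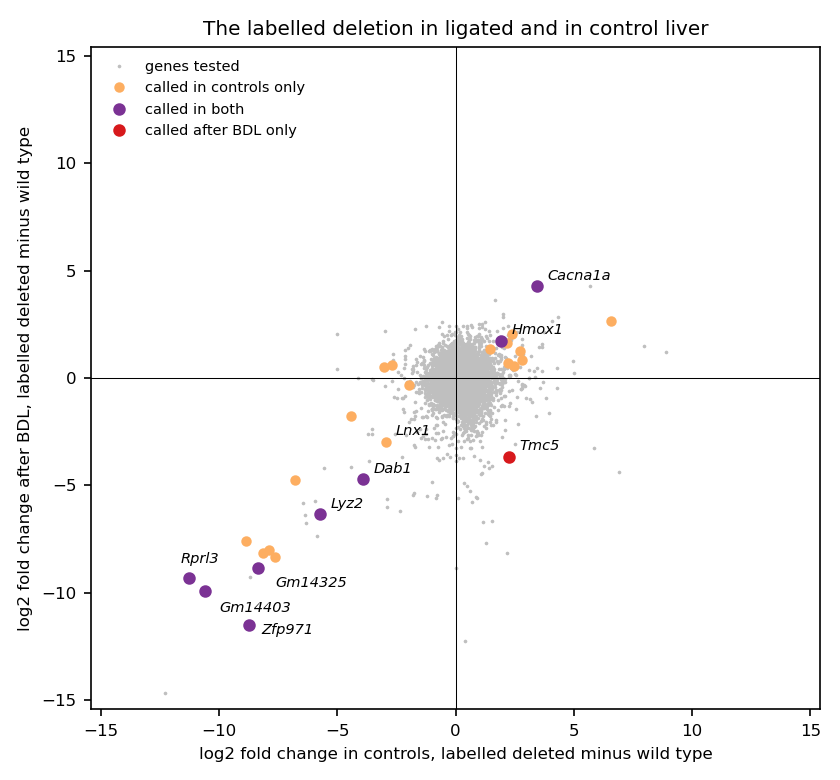
Log2 fold change of labelled deleted against wild type after BDL (vertical axis) and in controls (horizontal axis), with 1 point for each of 14147 genes. Of the 9 genes called after BDL, 8 have the same sign on both axes, Tmc5 does not, and most other genes form a cloud around 0.

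The share of genes that differed was higher around Hmox1 than over all genes. Chromosome 8 had the largest share of called genes, 3 of 752 (0.399%), namely Cacna1a, Hmox1 and Rprl3. Cacna1a (chr8:84388440-84640246) starts 9.29 Mb from Hmox1, and Rprl3 lies 71.3 Mb away on the other side. Within 10 Mb of the Hmox1 start, 196 genes were tested, and 24 were higher and 23 lower at an unadjusted p under 0.05, which is 24.0% against 11.8% of all genes. In controls the same interval had 15.8% against 6.84%. Genes with an unadjusted p under 0.05 in both comparisons made up 7.65% of the interval (15 genes, 14 with the same sign) and 1.48% of all genes (210, of which 132 had the same sign). All 4 labelled-deleted libraries lay above all 4 wild-type libraries for 8 genes of the interval and below for 10 (9.18% together), against 100 and 162 genes overall (1.85%). Of chromosome 8 beyond that interval, 2.7% of 556 genes separated in this way.

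Next in rank within the interval were Rfxank, a subunit of the factor that switches on MHC class II genes, and Ints10, a subunit of the Integrator complex. Rfxank was at 5.11 and 4.65 CPM in labelled deleted and 13.5 and 19.9 CPM in wild type, and its controls lay the same way (log2 fold change -1.75, adjusted p = 0.0534, edgeR, not called). Ints10 was at 28.0 and 21.0 CPM against 9.09 and 10.5 CPM (log2 fold change 1.34, adjusted p = 0.102, edgeR, not called after BDL), and it was called in controls (1.46, adjusted p = 0.0286, edgeR). What the place of these genes near the modified allele has to do with their levels was not tested.

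**Figure D3:**
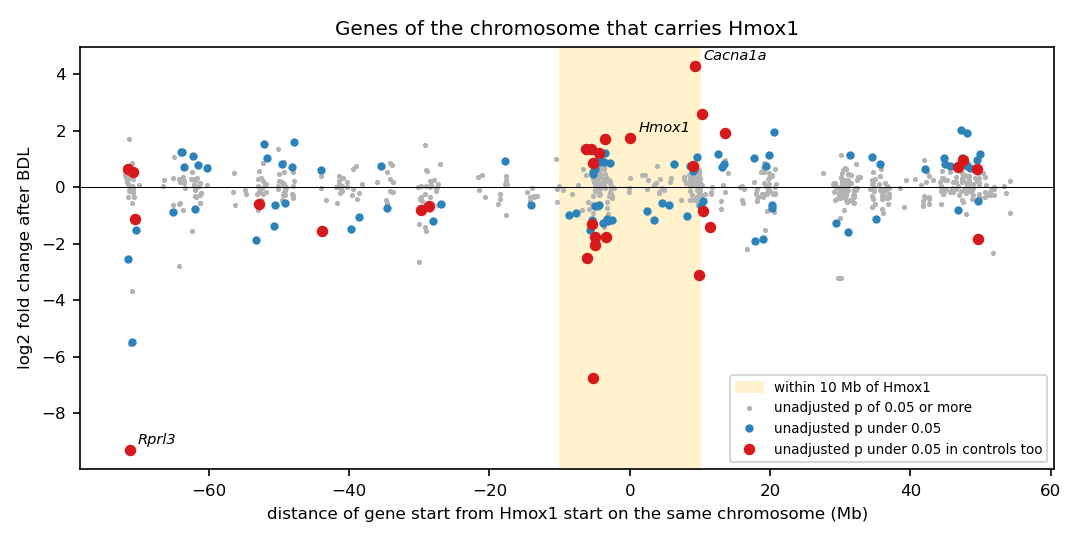
Log2 fold change after BDL of the 752 tested genes of chromosome 8 against the distance of each gene start from the Hmox1 start (Mb). The shaded band spans 10 Mb on either side, and red points, with an unadjusted p under 0.05 in both comparisons, make up 7.65% of the genes in the band.

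Lnx1, the ligase of the proposed path, was lower in labelled deleted but missed the threshold after BDL. It was at 2.09 and 0.665 CPM in labelled deleted and at 8.13 and 18.2 CPM in wild type (log2 fold change -2.96 ± 0.49, adjusted p = 0.0832, edgeR). In controls the difference was the same size and passed (1.62 and 1.02 CPM against 10.5 and 9.55 CPM, log2 fold change -2.96, adjusted p = 0.0284, edgeR). All 4 labelled-deleted libraries lay below all 4 wild-type libraries. The shallowest library had 3 Lnx1 counts. After BDL Lnx1 was called in 7 of 23 alternatives, among them DESeq2 and the fit without wild-type BDL replicate 1.

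Other genes of the Notch pathway were not called after BDL either. Notch1 itself was at 88.6 and 64.7 CPM in labelled deleted and 75.2 and 68.3 CPM in wild type, with overlapping groups (log2 fold change 0.10, adjusted p = 0.912, edgeR). The Numb transcript, the substrate, was at 33.5 and 31.0 CPM against 34.5 and 26.6 CPM, which also overlapped. Of 35 Notch pathway genes tested, 0 were called by edgeR and 1, Lnx1, by DESeq2, which called 1.21% of all genes. At an unadjusted p under 0.05, 5 were higher and 1 lower, beside 5.39% and 6.42% of all genes. Both labelled-deleted libraries lay above both wild-type ones for 10 and below for 6, beside 17.8% and 20.5% of all genes. The list median was 0.14 beside -0.01 over all genes. It was 0.07 without labelled-deleted replicate 1, 0.26 without wild-type replicate 1 and 0.285 without labelled-deleted replicate 2. The next in rank were Maml3, a coactivator of the Notch transcription complex (21.5 and 11.5 CPM against 8.07 and 10.6 CPM, log2 fold change 0.88, adjusted p = 0.325, edgeR) and the receptor Notch3 (12.9 and 10.4 CPM against 5.82 and 6.28 CPM, 0.97, adjusted p = 0.335, edgeR). Dll4, a Notch ligand, was at 7.70 and 3.77 CPM against 3.98 and 2.35 CPM and overlapped.

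Gene lists are described by how many members lay above or below, meaning that both labelled-deleted libraries lay above or below both wild-type ones, and by the median log2 fold change. Brackets after a median give its range with each of the 4 BDL libraries left out in turn. Over all genes 17.8% lay above and 20.5% below, and 5.39% were higher and 6.42% lower at an unadjusted p under 0.05. Total-count scaling, which keeps RN45S in the denominator, moved the median of all genes from -0.01 to -0.69. Of the positive list medians given below, those of the matrix and monocyte lists alone stayed above 0 under that scaling. The counts depended on it as well: with total counts 155 of all genes lay above and 6148 below, and of the matrix list 4 and 3, while with RN45S left out of the totals 1751 and 3666 of all genes did, and 32 and 1 of the matrix list. Relative to the shift, the medians of the hepatocyte, immediate early and female-biased lists changed sign and the other 30 did not.

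Extracellular matrix genes stood higher in labelled deleted after BDL as a group, although no single one passed the threshold. Of 40 tested, 32 had both labelled-deleted libraries above both wild-type ones and 0 had them below, where 17.8% of all genes were above. The median log2 fold change was 0.92 (0.61 to 1.17, the lowest without wild-type BDL replicate 2) beside -0.01 over all genes, and 25 genes were higher and 0 lower at an unadjusted p under 0.05. In controls the median was 0.18, with 4 genes above and 2 below, where 23.4% and 21.4% of all genes were. By edgeR 0 matrix genes were called. DESeq2 called 8 of the 40 higher and 0 lower, beside 71 of all 14147 genes higher and 100 lower. Without wild-type BDL replicate 1 the list median by edgeR was 1.17.

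The fibrillar collagen Col1a1 was at 948 and 1321 CPM in labelled deleted and 475 and 518 CPM in wild type (log2 fold change 1.19). Col15a1, a basement membrane collagen, was at 51.2 and 67.4 CPM against 28.2 and 22.7 CPM (log2 fold change 1.21 ± 0.22, adjusted p = 0.113, edgeR). Ltbp2, a microfibril protein, was at 43.4 and 40.3 CPM against 19.4 and 15.7 CPM (1.25 ± 0.25, adjusted p = 0.120, edgeR). All of these gaps are about 2-fold and wider than the spread within either group. The collagen VI chains went together, with Col6a1 at 99.9 and 142 CPM against 48.1 and 41.9 CPM (adjusted p = 0.187, edgeR) and Col6a2 at 75.3 and 103 CPM against 37.2 and 26.4 CPM (adjusted p = 0.207, edgeR). Fibronectin (Fn1, 2751 and 3692 CPM against 3131 and 2972 CPM) and elastin (Eln) overlapped.

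Stellate cell and fibroblast genes had a smaller median of 0.55 (0.51 to 0.97, the highest without wild-type BDL replicate 1), with 10 of 20 above, 1 below, and 0 called by edgeR or DESeq2. Cygb, a globin of stellate cells, was at 20.3 and 23.3 CPM against 12.3 and 5.13 CPM (adjusted p = 0.244, edgeR). Pdgfrb, the receptor for platelet-derived growth factor, was at 47.2 and 55.8 CPM against 31.7 and 24.0 CPM (adjusted p = 0.270, edgeR). Acta2, the smooth muscle actin of activated stellate cells, was at 17.1 and 9.97 CPM against 6.49 and 6.83 CPM (adjusted p = 0.326, edgeR). Stellate cells and fibroblasts make most liver collagen, and LysM-Cre is not known to mark them. Their list held 0.146% and 0.0962% of counts outside RN45S in labelled deleted and 0.101% and 0.0806% in wild type, none of the 20 tested members was at 0 in any BDL library, and the part of these cells in the matrix values was not tested.

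Monocyte genes also stood higher as a group. Of 26 tested genes of the monocyte-derived list, 16 lay above and 2 below, beside 17.8% and 20.5% of all genes, and 13 were higher and 1 lower at an unadjusted p under 0.05. The median was 0.87 (0.45 without labelled-deleted replicate 2, 0.54 without wild-type replicate 2, and up to 1.14). By edgeR Lyz2, the Cre locus, was the only one called, and it is lower. DESeq2 called Lyz2 lower and Lyz1 and Hp, the acute phase protein haptoglobin, higher, and Lyz1 was also called higher by edgeR with total-count scaling and without wild-type BDL replicate 1. Lsp1, a leukocyte actin-binding protein, was at 22.4 and 33.7 CPM against 15.2 and 13.2 CPM (adjusted p = 0.270, edgeR), and Chil3, a chitinase-like protein of alternatively activated macrophages, at 6.19 and 6.42 CPM against 1.99 and 3.06 CPM (adjusted p = 0.295, edgeR). The receptor of classical monocytes, Ccr2, overlapped at 4.87 and 6.87 CPM against 8.89 and 6.22 CPM. The monocyte list's summed share of counts outside RN45S was 1.44% and 1.77% in labelled deleted and 1.15% and 1.09% in wild type. Most of that share was Fn1 and Hp, which hepatocytes also make, and without these the list held 0.0553% and 0.0618% against 0.0495% and 0.0347%.

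Apart from Lyz1, the largest positive log2 fold changes of the monocyte and macrophage lists were those of Gpnmb and Trem2, markers of lipid-associated and scar macrophages. Gpnmb, a lysosomal glycoprotein, was at 34.7 and 49.8 CPM in labelled deleted and 5.91 and 9.83 CPM in wild type (log2 fold change 2.43 ± 0.43, adjusted p = 0.111, edgeR). Trem2, a lipid-sensing receptor, was at 7.23 and 10.6 CPM against 2.78 and 1.97 CPM (1.86 ± 0.36, adjusted p = 0.120, edgeR). Lgals3, galectin-3, was at 12.03 and 27.5 CPM against 8.19 and 7.97 CPM (1.24, adjusted p = 0.268, edgeR). In 6 of 20 list members the groups did not overlap, all 6 higher (beside 17.8% of all genes), and 14 overlapped. The median was 0.45 (0.04 without labelled-deleted replicate 2, 0.24 without wild-type replicate 2, and up to 0.95). By edgeR 0 were called (3 higher at an unadjusted p under 0.05) and by DESeq2 2. In controls Gpnmb lay under 1 CPM in all 4 libraries, and the log2 fold change of Trem2 was 1.85, about as after BDL. There 7 list members lay above and 1 below, beside 23.4% and 21.4% of all genes, with a median of 0.22 and 0 called.

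Kupffer cell genes did not go 1 way. Marco, a scavenger receptor for bacteria and particles, was at 102 and 189 CPM in labelled deleted and 35.7 and 51.5 CPM in wild type (log2 fold change 1.73 ± 0.30, adjusted p = 0.102, edgeR, not called), and was called in controls (1.97, adjusted p = 0.0286, edgeR). Spic, a factor that drives the fate of iron-recycling macrophages and that heme induces, was at 2.09 and 3.54 CPM against 1.08 and 0.764 CPM (1.48, adjusted p = 0.270, edgeR). The complement gene C1qc was at 48.9 and 93.7 CPM against 34.1 and 25.01 CPM (adjusted p = 0.276, edgeR). Against these, the complement receptor Vsig4 was lower at 7.89 and 11.96 CPM against 22.9 and 12.4 CPM (-0.89, adjusted p = 0.326, edgeR), and Timd4 at 2.71 and 3.10 CPM against 5.93 and 4.48 CPM. The defining marker Clec4f overlapped (67.1 and 91.3 CPM against 108 and 60.9 CPM). In all, 7 of 25 lay above, 4 below, and the median was 0.24 (-0.13 without labelled-deleted replicate 2, 0.07 without wild-type replicate 2, and up to 0.54).

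Neutrophil genes were sparse, with 12 of 20 tested, 4 above and 2 below. Dendritic cell and MHC class II genes had a median of 0.79, with 5 of 16 above and 1 below. There Cd74, the invariant chain, was at 70.0 and 378 CPM against 108 and 31.5 CPM, so its mean rests on labelled-deleted replicate 2. Without that library the list median was 0.20. Lysosome and phagocytosis genes had 8 of 34 above and 0 below, with a median of 0.41. Cd68, a lysosomal protein of macrophages, was at 13.7 and 31.7 CPM against 12.6 and 9.01 CPM (adjusted p = 0.326, edgeR). Without labelled-deleted replicate 2 the lysosome median was -0.06, and without replicate 1 it was 0.675.

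**Figure D4:**
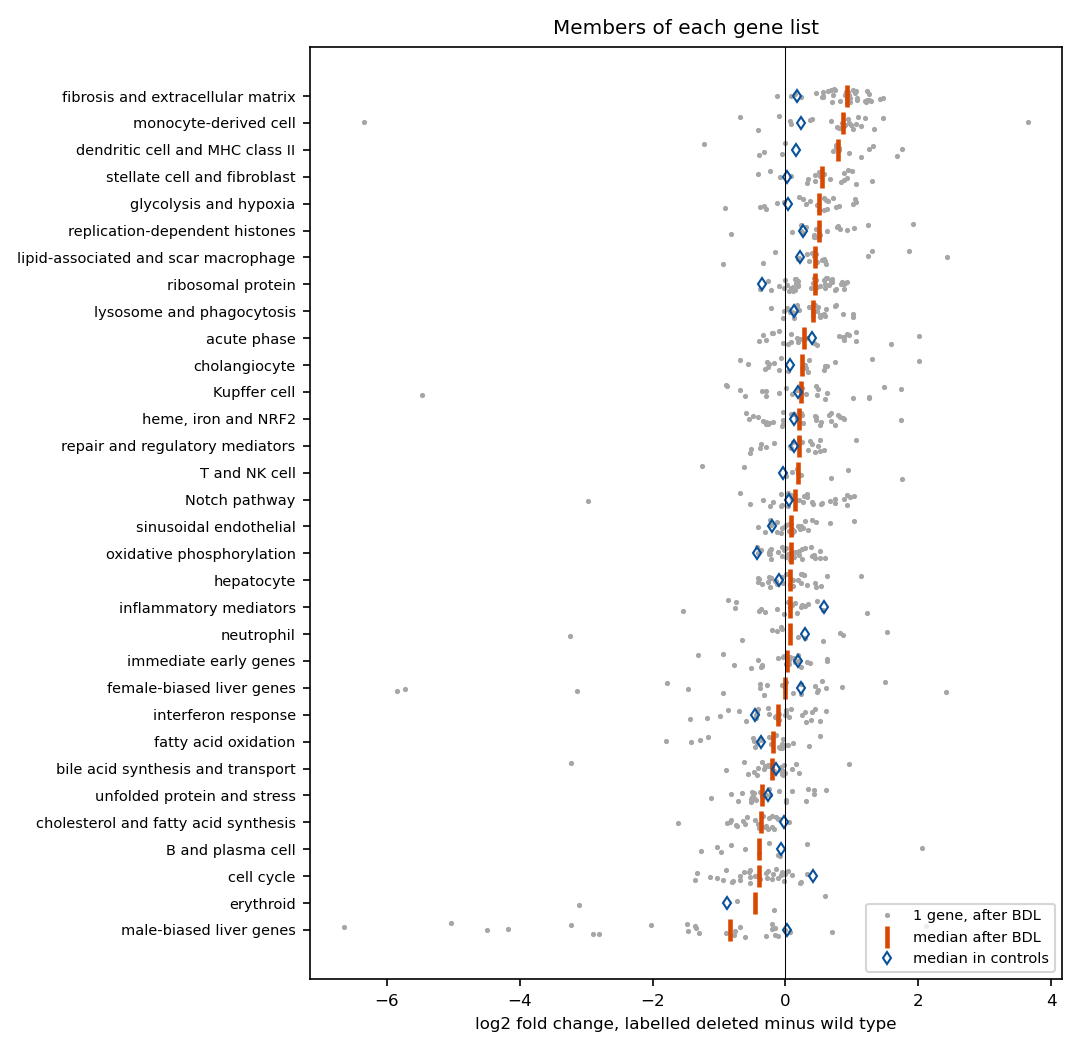
Log2 fold change after BDL of every tested member (grey points) of 32 gene lists, with the list median after BDL (orange bar) and in controls (blue diamond). Matrix and monocyte lists have medians of 0.92 and 0.87 after BDL, and the male-biased, erythroid and cell cycle lists have the lowest.

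Genes of heme and iron handling showed Hmox1 as the only call. Of 34, 15 lay above and 5 below, and the median was 0.21 (-0.05 without labelled-deleted replicate 2, 0.13 without wild-type replicate 2, and up to 0.41). Blvrb, biliverdin reductase B, was at 31.7 and 31.2 CPM against 21.9 and 15.5 CPM (log2 fold change 0.75, adjusted p = 0.293, edgeR). Hamp, the iron hormone hepcidin, was at 155 and 157 CPM against 116 and 76.9 CPM (0.69, adjusted p = 0.343, edgeR), and was called in controls (2.21, adjusted p = 0.00434, edgeR). The constitutive isoenzyme Hmox2 overlapped, as did the ferritin chains Fth1 and Ftl1.

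Sterol and fatty acid synthesis genes were lower in labelled deleted. Of 24, 15 lay below and 0 above, where 20.5% of all genes lay below, the median was -0.37 (-0.56 to -0.38), and 8 were lower and 0 higher at an unadjusted p under 0.05. None was called by edgeR or DESeq2. Idi1, an isomerase of the isoprenoid path, was at 1.08 and 2.22 CPM against 5.58 and 3.11 CPM (log2 fold change -1.62, adjusted p = 0.266, edgeR). Fdft1, squalene synthase, was at 49.3 and 52.7 CPM against 94.0 and 77.0 CPM (-0.75, adjusted p = 0.268, edgeR), and the sterol sensor Insig1 at 65.8 and 75.8 CPM against 119 and 132 CPM (-0.83, adjusted p = 0.289, edgeR). In controls the list median was -0.01, with 6 above and 4 below.

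Glycolysis and hypoxia genes lay the other way, with 13 of 23 above and 2 below, beside 17.8% and 20.5% of all genes, and a median of 0.51 (0.31 to 0.59, the lowest without labelled-deleted replicate 1). At an unadjusted p under 0.05, 8 were higher, 0 were called by edgeR and 1 by DESeq2. Pkm, the pyruvate kinase of macrophages and proliferating cells, was at 100.3 and 113 CPM against 57.7 and 45.6 CPM (log2 fold change 1.04, adjusted p = 0.241, edgeR), and was called by 2 of 23 alternatives. Slc2a1, a glucose transporter, was at 15.9 and 14.4 CPM against 9.03 and 9.39 CPM (adjusted p = 0.319, edgeR). Fatty acid oxidation genes had 6 of 24 below, near the 20.5% of all genes, and 0 above, with a median of -0.19 that was 0.18 without wild-type replicate 1. Pdk4, the kinase that shuts off pyruvate oxidation in fasting, was at 6.19 and 5.76 CPM against 13.6 and 13.4 CPM (-1.16, adjusted p = 0.268, edgeR).

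Cell cycle genes had 15 of 34 below, beside 20.5% of all genes, and 0 above, with a median of -0.40 (-0.58 to -0.25, the latter without wild-type replicate 2), but 1 was lower at an unadjusted p under 0.05 and 0 were called by edgeR or DESeq2. Ccnb2, cyclin B2, was at 1.97 and 2.22 CPM against 3.62 and 4.26 CPM (adjusted p = 0.331, edgeR). Mki67, a marker of dividing cells, was at 45.5 and 25.04 CPM against 47.8 and 133 CPM, so its lower mean rests on wild-type replicate 2. In controls the list median was 0.41. Replication-dependent histone genes, a separate list, lay the other way after BDL. Of these, 11 of 21 lay above and 1 below, beside 17.8% and 20.5% of all genes. Their median was 0.50 (0.39 to 0.66), 2 were higher and 0 lower at an unadjusted p under 0.05, and 0 were called by edgeR or DESeq2.

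Sex-biased liver genes need the female library beside them. Of 28 male-biased genes 5 were below and 2 above, with a median of -0.84 (-1.44 to -0.03), although the female library is in the wild-type group. Slco1a1, a hepatocyte uptake carrier of males, had 0.116 and 0 CPM in labelled deleted and 0.760 and 1.20 CPM in wild type, all far under the 229 to 323 CPM of the 4 controls (adjusted p = 0.120, edgeR). Sult2a8, a bile acid sulfotransferase, was at 0.232 and 0.443 CPM against 0.994 and 1.26 CPM (adjusted p = 0.207, edgeR). Without the female library the male-biased median was -1.39, and without the other wild-type BDL library -0.03. Among female-biased genes, Cyp2a4 was at 97.6 CPM in the female library and 2.95 CPM in the other wild-type one, against 0.812 and 1.11 CPM (adjusted p = 0.391, edgeR). Cux2, a female-specific liver repressor, was at 27.9 and 9.75 CPM in the male labelled-deleted libraries and 5.88 and 1.15 CPM in wild type (log2 fold change 2.42, adjusted p = 0.272, edgeR).

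Acute phase genes had 10 of 26 above and 0 below, with a median of 0.27 that was -0.12 without labelled-deleted replicate 2, negative with the RN45S share as covariate, and 0.16 without wild-type replicate 2. Orm2, an acid glycoprotein, was at 303 and 775 CPM against 166 and 101 CPM (log2 fold change 2.01, adjusted p = 0.268, edgeR), and Saa2, serum amyloid, at 420 and 394 CPM against 258 and 168 CPM (0.93, adjusted p = 0.335, edgeR). In controls 13 acute phase genes lay above and 2 below, beside 23.4% and 21.4% of all genes, with a median of 0.40. There the log2 fold changes of Orm2 and Saa2 were 2.21 and 1.53. Ribosomal protein genes had 13 of 42 above and 0 below, beside 17.8% and 20.5% of all genes. Their median was 0.44 after BDL, against -0.35 in controls. That median was 0.04 without wild-type replicate 2, 0.14 without labelled-deleted replicate 2, and 0.87 without the female library. Rps19 was at 29.2 and 33.2 CPM against 18.3 and 15.999 CPM (adjusted p = 0.248, edgeR). With all libraries 0 ribosomal protein genes were called by edgeR or DESeq2.

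Interferon genes had 6 of 30 below and 3 above, near the 20.5% of all genes below and under the 17.8% above. Their median was -0.11 (-0.40 without wild-type replicate 1 to 0.19 without replicate 2). In controls 15 of the 30 lay below and 0 above, beside 21.4% and 23.4% of all genes, with a median of -0.45. After BDL Iigp1, a GTPase against intracellular pathogens, was at 30.7 and 62.7 CPM against 77.4 and 105 CPM (log2 fold change -0.98, adjusted p = 0.319, edgeR). Unfolded protein and stress genes had 8 of 27 below and 2 above, with a median of -0.35 (-0.03 without wild-type replicate 2, and -0.53 without the female library). Dnajb9, a chaperone of the endoplasmic reticulum, was at 8.97 and 8.86 CPM against 18.2 and 20.7 CPM (-1.12, adjusted p = 0.224, edgeR). Inflammatory mediators were near the background, with 3 of 21 above, 2 below and a median of 0.07 (-0.11 to 0.19). The chemokine Cxcl10 was at 2.21 and 3.54 CPM against 3.54 and 12.2 CPM and did not separate the groups.

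Marker lists of other liver cells had smaller medians than the matrix list. Hepatocyte genes had 4 of 31 above and 2 below, with a median of 0.08, and albumin (Alb) overlapped at 11590 and 25160 CPM against 23580 and 19520 CPM. Cholangiocyte genes had 2 of 21 above and 1 below (median 0.26, -0.255 without labelled-deleted replicate 1), and Krt19, a keratin of bile duct cells, was at 7.89 and 7.53 CPM against 4.502 and 5.73 CPM. Sinusoidal endothelial genes had 6 of 26 above and 3 below (median 0.09), T and NK cell genes 3 of 10 above and 2 below, and B and plasma cell genes 2 of 11 above and 2 below. The signs of the hepatocyte, cholangiocyte and endothelial medians changed with total-count scaling, and without labelled-deleted replicate 2 the hepatocyte and endothelial medians were -0.39 and -0.08. Bile acid synthesis and transport genes had 7 of 25 below and 1 above (median -0.20, and -0.29 to -0.11 with libraries left out). Abcb4, the phospholipid exporter of bile, was at 299.5 and 273 CPM against 432 and 413 CPM (log2 fold change -0.56, adjusted p = 0.430, edgeR).

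The number of calls rested on single libraries. Without labelled-deleted BDL replicate 1 only Cacna1a was called, and without replicate 2 the 4 calls were Cacna1a, Dab1, Lyz2 and Tmc5. Zfp971 also lost its call without either wild-type control library. Without the female wild-type library 306 were called (85 higher, 221 lower), all 9 among them, and without the other wild-type BDL library 33. DESeq2 called 171 genes (71 higher, 100 lower), again with all 9. Total-count scaling called 3 higher and 92 lower. With that scaling but RN45S left out, an alternative added after the data were seen, 2 were higher and 8 lower.

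**Figure D5:**
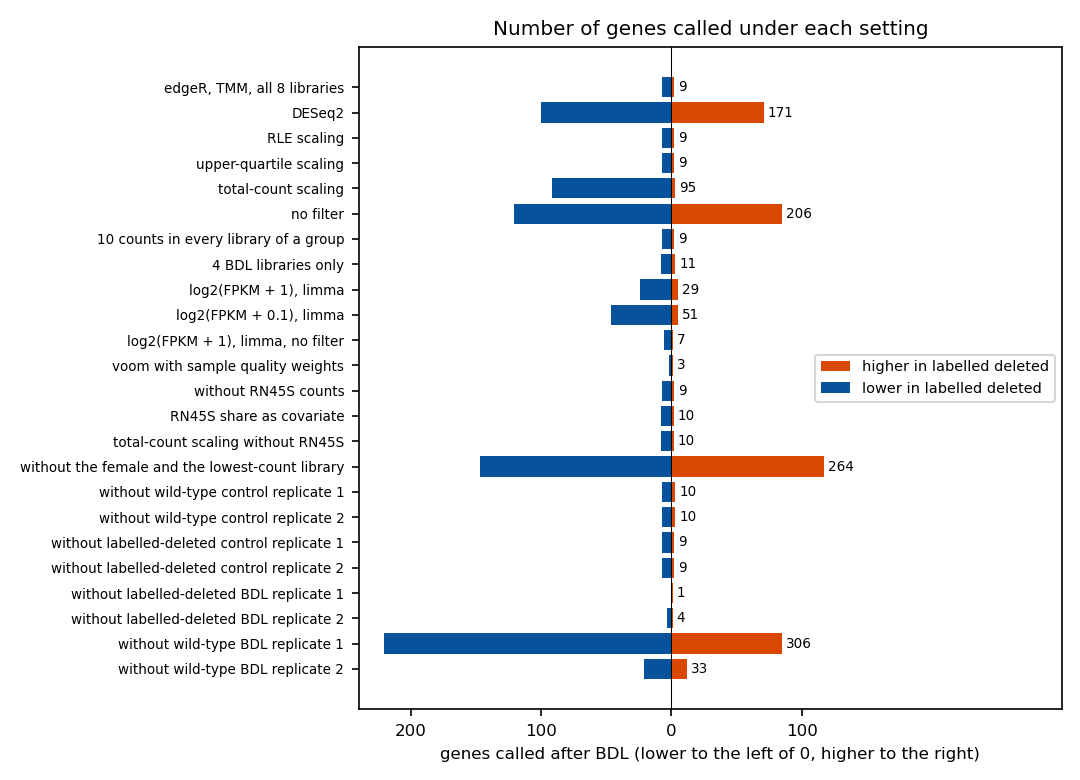
Number of genes called after BDL under each of 24 settings, split into lower (blue, left of 0) and higher (orange, right of 0) in labelled deleted, with the total printed at each bar. The count runs from 1 without labelled-deleted BDL replicate 1 to 306 without wild-type BDL replicate 1, the female library.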

How the data were processed

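Ribosome-associated RNA of 8 libraries was sequenced after ribosomal RNA depletion with a stranded kit, per the labels' protocols. STAR 2.7.3a, Cufflinks and the build mm10 are listed in the submitters' processing notes. The authors deposited a table of counts per gene symbol (24982 genes, used as deposited) and a table of FPKM (24917 genes), used only in alternatives. The strand of counting and the annotation release are not given in the sources used here. Positions came from GENCODE vM21, in which 24444 symbols had 1 position, and upstream windows from RefSeq (GRCm38.p6).

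Genes were kept with filterByExpr (14147), scaled by TMM (factors 0.460 to 1.41) and fitted with the robust quasi-likelihood model of edgeR 4.0.16 in R 4.3.3 to 4 group means over all 8 libraries, which leaves 4 residual degrees of freedom. The common biological coefficient of variation was 23.0%. Tests were two-sided F tests with Benjamini-Hochberg adjustment over all genes, and genes under 0.05 after adjustment are called. On simulated counts of the comparison after BDL with 200 changed genes, the model recovered 7.5% of changes of 1 on the log2 scale, 84.5% of changes of 2 and 96.0% of changes of 3 (14001, 13957 and 13953 genes tested). The simulation drew every gene with the common coefficient of variation, so these rates do not cover genes with a wider spread. Precision is limited for changes near 2-fold even there. In the data larger changes also went uncalled, such as those of Lyz1 (log2 fold change 3.65 after BDL) and Lnx1 (-2.96). Within groups the libraries' log2 CPM correlated with r of 0.953 to 0.985, and their counts varied beyond counting error.

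Alternatives used DESeq2 1.42.0 and limma 3.58.1 (voom with quality weights, and log2 FPKM with pseudocounts 1 and 0.1). Genes named are Hmox1, Lnx1, Notch1, Lyz2, Rpl22, the sex markers, up to 12 called genes per direction with a mean log2 CPM of at least 1 and no overlap, excluding predicted genes, up to 4 genes near Hmox1, and the 4 members of each of 33 lists with the smallest adjusted p, of which the text gives a part. Other genes given with values are the list members, defining markers and path genes that the text introduces as such, picked after their values were seen. The members and lists were chosen with earlier results of these data known. Every sample title starts with the same prefix, and the labels do not say what it stands for. No replicate numbers, batches or dates are given that would link some libraries and not others. Shared reads were judged by 50-base stretches of GENCODE transcripts. The values of 1 gene are not reported here.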

Additional observations from a re-analysis of the deposited data

Results flagged for a closer look

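Tmc5 stands out because the labelled-genotype effect differed between ligated and unligated liver by a test of the difference itself. The interaction was -5.90 on the log2 scale (adjusted p = 0.0387, edgeR quasi-likelihood test). After BDL both labelled-deleted libraries (0.928 and 1.99 CPM) lay below both wild-type libraries (13.4 and 17.6 CPM), while in controls both (0.385 and 0.402 CPM) lay above (0.0628 and 0.0965 CPM). The control levels rest on 9 and 19 counts in labelled deleted and 2 and 3 in wild type. The sign of the interaction held in 22 of 22 alternatives and the call in 13. The call was lost without any 1 of the 4 control libraries and without labelled-deleted BDL replicate 1. It was also lost with voom and quality weights, the RN45S share as covariate, log2(FPKM + 0.1), and log2(FPKM + 1) without a filter. Groups of 2 libraries are too small for a search for outlying libraries.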

How the results depend on the processing

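After BDL the count of 9 calls was 171 with DESeq2, 95 with total-count scaling, 206 with no filter on low counts, 29 with log2(FPKM + 1), 51 with log2(FPKM + 0.1), 3 with voom and quality weights, and 264 without the female and the shallowest library together. Leaving out 1 library at a time gave 1 to 306. In controls the 27 calls became 100 with DESeq2, 44 with total-count scaling, 126 with no filter, 52 and 45 with FPKM at pseudocounts 1 and 0.1, 78 with voom, 17 with the RN45S share as covariate, 62 without the 2 libraries, and 12 to 52 with 1 library left out. The interaction's 1 call became 84, 7, 138, 13, 8 and 0 in the same order through voom, 2 with FPKM and no filter, 0 with the RN45S covariate, 213 without the 2 libraries, and 0 to 195 with 1 library left out. The cause was not tested, except that no filter adds genes. Other alternatives stayed within 1.5 times.

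Notch1 changed sign with total-count scaling (-0.51), that scaling without RN45S (-0.0033), FPKM (-0.28, -0.41 and, unfiltered, -0.28) and with libraries left out in turn (-0.13 to 0.30, the lowest without labelled-deleted BDL replicate 1). Rpl22 ran from -0.76 to 0.14 with libraries left out, the highest without wild-type BDL replicate 1. The medians of the matrix, monocyte, sterol synthesis, cell cycle, stress, bile acid and male-biased lists kept their sign in 23 of 23 alternatives, but without wild-type BDL replicate 2 those of the stress and male-biased lists were both -0.03. Under total-count scaling the shift of all genes was -0.69, and relative to it the matrix median was 0.86 and that of ribosomal protein genes 0.46.

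No paired analysis was possible because the labels give no replicate numbers. Depth limits the low genes: 3.25 M counts outside RN45S in the shallowest library leave 3 counts for Lnx1 and for Lyz2 there.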

Other observations

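Zinc finger genes named Zfp as a class, chosen after the values were seen, lay lower after BDL. Of 350 tested, both labelled-deleted libraries were below both wild-type ones for 149 (42.6%, beside 20.5% of all genes) and above for 38, with a median of -0.46. In controls the order was the opposite, with 179 (51.1%, beside 23.4%) above, 22 below and a median of 0.26. Of these genes 1, Zfp971, was called after BDL. RN45S took 38.6% and 66.8% of counts in labelled deleted and 37.1% and 18.8% in wild type after BDL. In controls it took 55.6% and 22.6% in labelled deleted and 10.3% and 17.7% in wild type. The part of RN45S in the values of the Zfp genes was not tested.

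Several further genes had no counts in the labelled-deleted libraries. Gm14322, Gm14327, Rprl2 and Zfp972 had 0 counts in all 4 of them, ligated or not, and 75, 60, 63 and 46 counts in the 2 wild-type BDL libraries, so they were at least 14.5-, 11.6-, 12.1- and 8.86-fold lower there with a floor of 3 counts over the group. None of the 4 was called after BDL, and all 4 were called in controls. Rprl2 is a near relative of Rprl3, and Zfp972 belongs with the zinc finger genes. Serpina3c, a serine protease inhibitor, had 6 and 1 counts in labelled deleted and 291 and 69 in wild type after BDL (adjusted p = 0.102, edgeR), and was called in controls.

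Of the 2524 genes above in labelled deleted after BDL, 604 were above and 443 below in controls. Of the 2896 below after BDL, 663 were below and 725 above in controls.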
